A study of Mus musculus with 15 samples.

Results

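The genes described here were 56 genes of the lysosome, namely 14 cathepsins and other proteases, 14 glycosidases, 6 enzymes of sulfated sugar breakdown, 5 lipid hydrolases, 3 phosphatases and nucleases, 4 activators and accessory proteins, 6 membrane proteins and 4 proteins of enzyme sorting. They were taken from a list of symbols drawn up by protein function, with earlier results of these data known, and all 56 were found among the 57186 genes of the count table. All 56 also passed the minimum of 10 counts summed over the libraries, as did 19839 genes in all, and no library held fewer than 62 counts for any of the 56.

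RAW 264.7, a mouse macrophage cell line, was treated for 6 h with one of 4 silica nanoparticles (SNPs), and poly(A) RNA was sequenced from 3 libraries per group. SNP100 and SNP50 were solid, nonporous particles with nominal diameters of 100 and 50 nm, given at 50 and 25 µg/mL. MSNP were mesoporous and HMSNP hollow mesoporous particles, both of about 100 nm and both given at 200 µg/mL, and Control cells received no particles. Each dose was the highest that the study found nontoxic for that particle, and all cells grew in RPMI medium with serum. MSNP and HMSNP were the only pair at a matched dose, which was matched by mass.

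Lysosomes are acidic compartments in which macrophages digest much of what they take up. Their soluble hydrolases are made in the endoplasmic reticulum, tagged with mannose 6-phosphate in the Golgi, carried to endosomes by mannose 6-phosphate receptors and often activated by proteolysis. Many lysosomal genes are known to carry the CLEAR motif, an element bound by the MiT/TFE transcription factors, which raise lysosomal gene expression when lysosomes are stressed or nutrients are scarce.

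Total counts lay between 29369934 and 42617812 per library. All 9 macrophage markers (Adgre1, Csf1r, Itgam, Ptprc, Lyz2, Mertk, Fcgr1, Cd14 and Spi1) exceeded a mean of 1 CPM (counts scaled to library size), whereas no marker of T cells, B cells, fibroblasts, epithelium or endothelium did. Of 3 neutrophil markers only S100a8 did, and this list summed to between 1.42 and 3.31 CPM. Cd8a, Ms4a1, Col1a2, Dcn, Epcam, Krt18 and S100a9 were at 0 in every library. The summed macrophage markers were lower in the MSNP-treated libraries, 11970 to 12880 CPM against 15230 to 19490 CPM in the controls. Lyz2 made up most of these sums, at 8928 to 9810 CPM with MSNPs and 10710, 10760 and 15070 CPM in Control replicates 1, 2 and 3. With MSNPs 6 of the 9 markers passed the test downward, beside 11.0% of all tested genes. The part of these shifts in the lysosomal results was not tested. The controls differed more from each other than the replicates of any treated group did. The mean chi-square per gene was 66.17 between Control replicates 1 and 2, and 174 and 205.3 between these and Control replicate 3. Within the treated groups it ran from 4.585 to 13.94, so fits without Control replicate 3 still rest on controls that differed. Control replicate 3 stood apart from the other controls, with values that fell with transcript length. Its median log2 difference went from 0.70 in the bin of shortest transcripts to -0.86 in the bin of longest, out of 10 bins. Among the lysosomal genes its difference ran from -1.43 for Igf2r to 0.78 for Cd63, so calls that it changes, and values past the test that it moves by more than 1.5 times, are given with and without it where MSNP and HMSNP are compared with the controls. The sample names of each group carried a numeric prefix of their own, which the labels do not explain and which cannot be told apart from treatment, and the labels do not say whether libraries came from separate cultures, so p-values measure only the spread between these libraries. In bulk RNA, fewer cells and less RNA per cell cannot be told apart either.

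The 56 genes together took up 1.92% ± 0.08 (SD, n = 3) of all counts in the controls. The share was 2.03% ± 0.04 in the SNP100-treated group, 1.98% ± 0.03 in the SNP50-treated group and 1.91% ± 0.02 in the HMSNP-treated group, and 3.07% ± 0.04 in the MSNP-treated group. The 3 MSNP libraries, at 3.04% to 3.11%, lay above all other libraries, of which the highest reached 2.06%.

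Levels among the genes spanned more than 3 orders of magnitude when scaled to transcript length. In the controls the highest was Cd68, a membrane glycoprotein of macrophage endosomes and lysosomes, at 799 ± 30.6 CPM per kb. It was followed by the aspartic protease cathepsin D (Ctsd, 700 ± 136 CPM per kb), by prosaposin (Psap, 607 ± 53.7), the precursor of the saposins that present sphingolipids to their hydrolases, and by the cysteine protease cathepsin B (Ctsb, 539 ± 30.4). The Ctsd level overlapped with those of its neighbours within the SD. The lowest was the sorting receptor sortilin (Sort1), at 0.45 ± 0.15 CPM per kb, below cathepsin E (Ctse, 1.86 ± 0.12) and the hyaluronidase Hyal1 (3.52 ± 0.66). In the MSNP-treated group the order at the top was Ctsd (1396 ± 35.1 CPM per kb), Psap (1339 ± 22.2), Cd68 (1282 ± 25.0) and Ctsb (1188 ± 35.1), whereas Sort1 remained lowest at 0.44 ± 0.01.

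**Figure D1:**
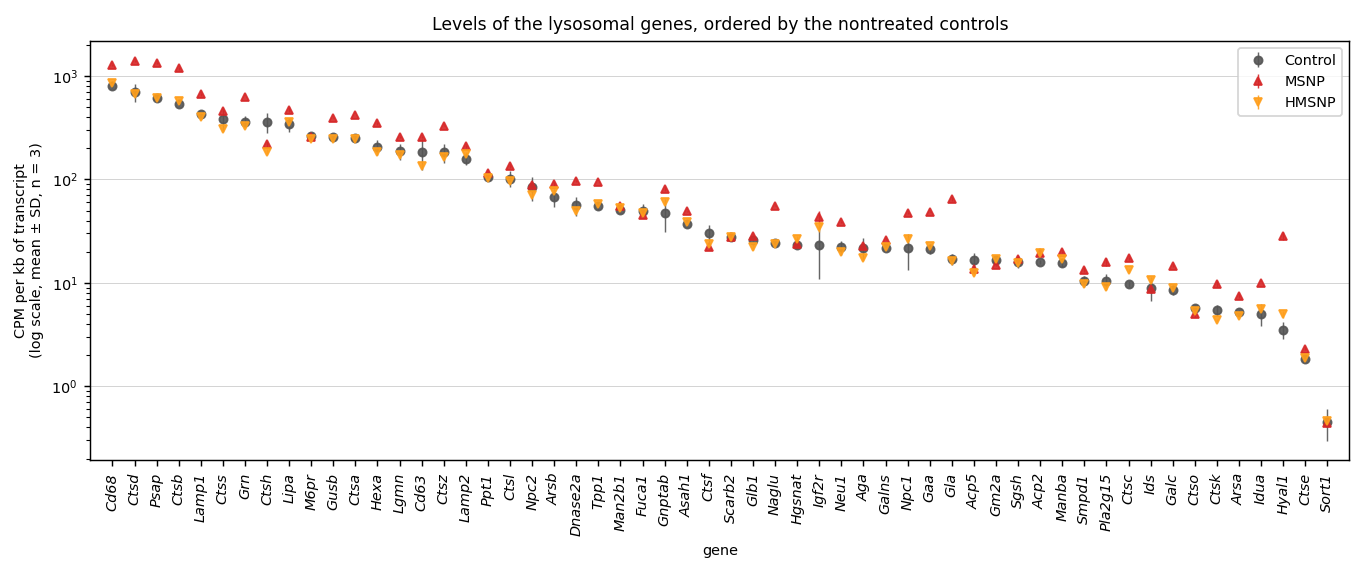
Levels of the 56 lysosomal genes in CPM per kb of transcript on a log axis, with the genes ordered by the nontreated controls; symbols are means and lines SDs of 3 libraries of the Control, MSNP and HMSNP groups. The MSNP symbols lie above the others for most genes, from Ctsd (1396 against 700) down to Hyal1 (28.6 against 3.52), and below the controls for Ctsh (218 against 360).

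MSNP treatment was the condition in which most of the genes moved. By the quasi-likelihood test of edgeR, with p-values adjusted after Benjamini and Hochberg over all tested genes, 38 of the 56 genes rose against the nontreated controls and 3 fell, at an adjusted p threshold of 0.05. This was 67.9% of the genes against 11.8% of all tested genes called higher, and 5.36% against 11.0% called lower. The median log2 fold change was 0.46 for the 56 genes and -0.05 for all tested genes. In 40 genes every MSNP library lay above every control, and in 5 every one lay below, where the shares over all tested genes were 17.0% and 16.2%. Without Control replicate 3 the median of the 56 genes was 0.53, and 41 genes were higher and 4 lower, beside 16.3% and 13.2% of all tested genes.

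**Figure D2:**
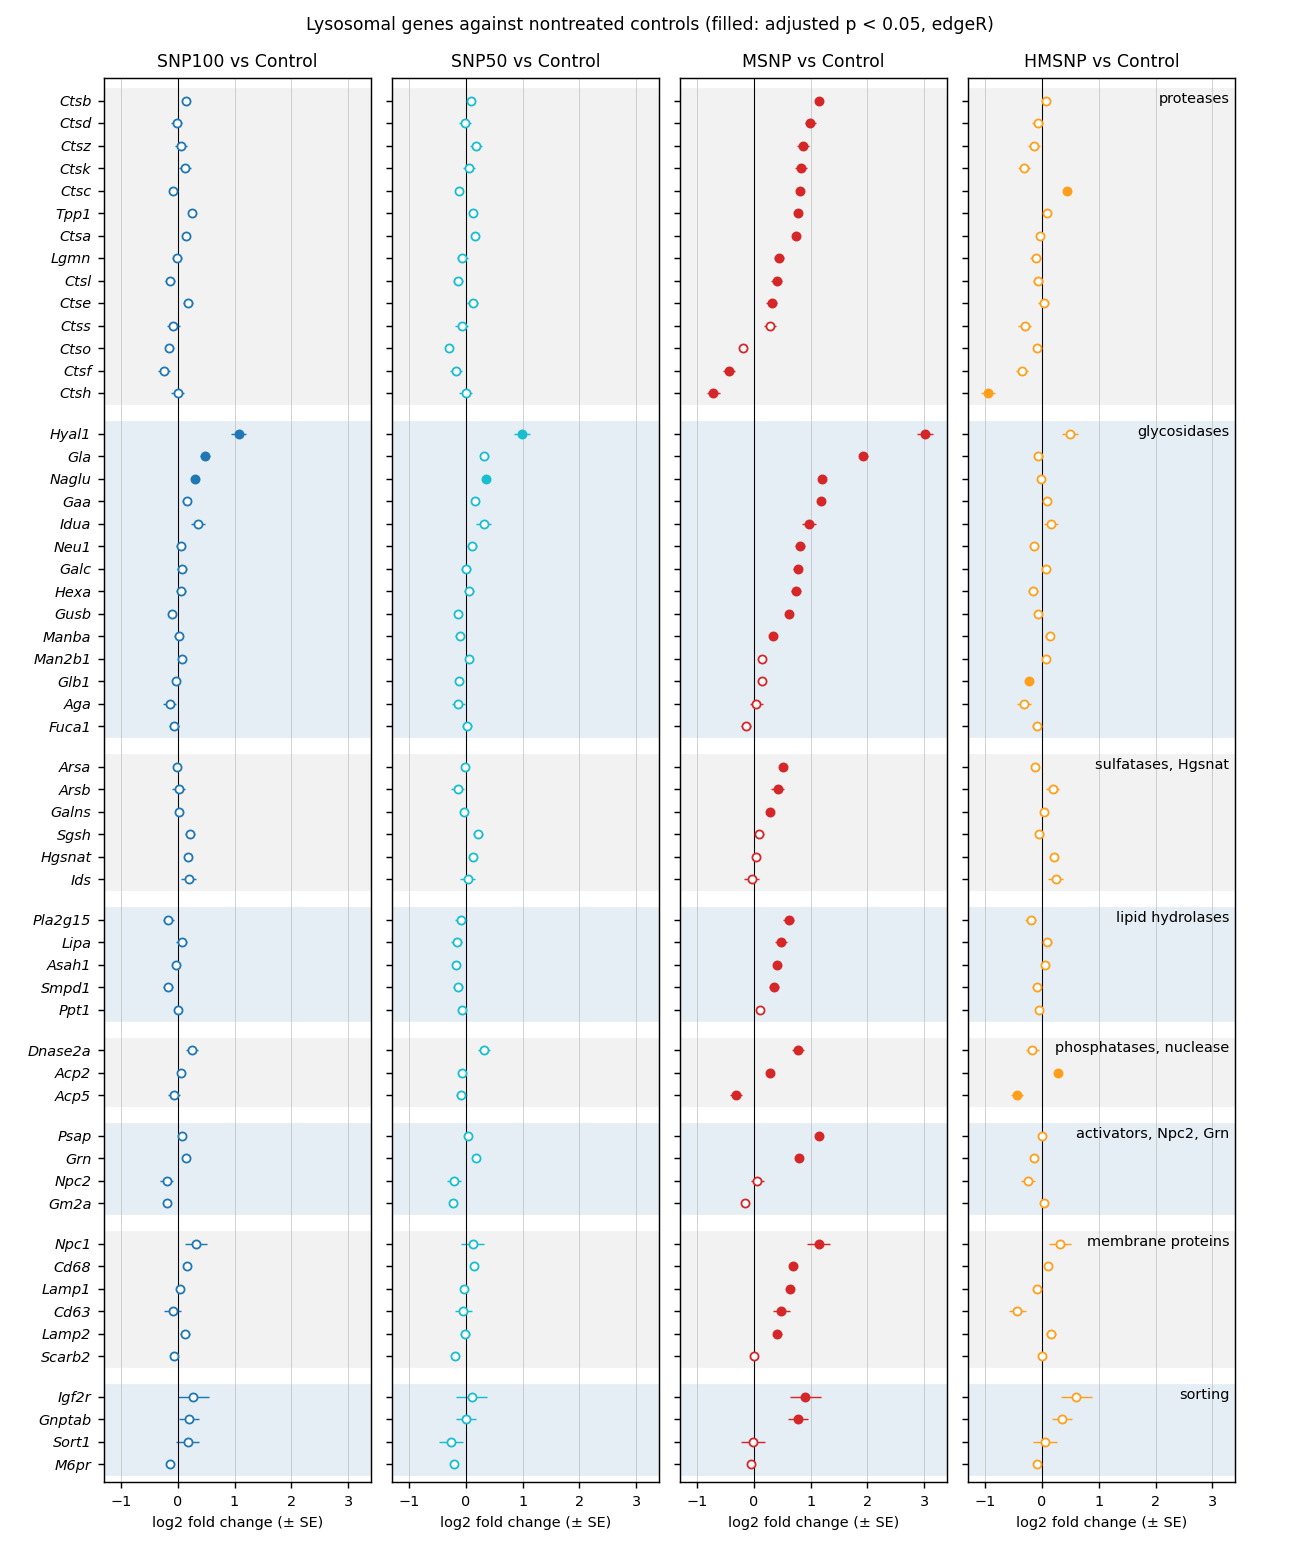
Log2 fold change of each lysosomal gene against the nontreated controls, 1 panel for each particle, with genes grouped by class and ordered by the MSNP effect; points are edgeR estimates, lines SEs, and filled points passed an adjusted p of 0.05. In the MSNP panel 38 filled points lie to the right of 0 and 3 to the left, whereas the SNP100, SNP50 and HMSNP panels hold 3, 2 and 5 filled points.

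The promoters of the genes were read for the CLEAR core, since many of the genes moved together. The window ran from 250 bases before to 50 bases after the start of the canonical GENCODE transcript on GRCm39. The motif TCACGTGA, which is palindromic and so reads alike on both strands, contains the shorter E-box CACGTG, and every match to the first is also a match to the second. TCACGTGA was found in the windows of 4 of the 56 genes (7.14%), against 1.6% of the 13135 tested protein-coding genes and 1.11% of all 21691 in the table. CACGTG was found in 12 (21.4%), against 9.84% and 7.83%. Of the 38 genes that rose with MSNPs 4 had TCACGTGA and 9 had CACGTG, and of the other 18 genes 0 and 3 did. These are matches of letters and not measured binding sites. The stretches below lie before the start and are shown because they hold the motif, with TCACGTGA in capitals in the first 3 and CACGTG in the rest. They come from the GRCm39 genome in the direction of transcription, for 6 genes that rose with MSNPs and for Glb1, which did not pass the test there. Sites that cross or follow the start are not shown. They were found in Ctsb, Naglu and Arsa, which rose with MSNPs, in Ctsf, which fell, and in Sgsh, which did not pass. Igf2r and Lamp1 held further sites of this kind.
Gla (ENSMUSG00000031266, chrX:133501912-133502012, minus strand, sites 78 and 45 bases before the start): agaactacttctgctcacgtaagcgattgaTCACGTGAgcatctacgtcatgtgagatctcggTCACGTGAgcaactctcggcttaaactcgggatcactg
Dnase2a (ENSMUSG00000003812, chr8:85635090-85635157, plus strand, site 69 bases before the start): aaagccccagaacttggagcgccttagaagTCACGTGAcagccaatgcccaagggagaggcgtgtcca
Igf2r (ENSMUSG00000023830, chr17:12988615-12988672, minus strand, site 28 bases before the start): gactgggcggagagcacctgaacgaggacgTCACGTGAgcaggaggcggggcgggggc
Ctsd (ENSMUSG00000007891, chr7:141941776-141941839, minus strand, site 34 bases before the start): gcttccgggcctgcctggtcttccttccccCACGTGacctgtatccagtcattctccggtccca
Gaa (ENSMUSG00000025579, chr11:119158619-119158684, plus strand, site 64 bases before the start): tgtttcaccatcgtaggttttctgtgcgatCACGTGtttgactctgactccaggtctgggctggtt
Lamp1 (ENSMUSG00000031447, chr8:13209070-13209120, plus strand, site 21 bases before the start): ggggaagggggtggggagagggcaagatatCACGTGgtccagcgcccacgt
Glb1 (ENSMUSG00000045594, chr9:114230068-114230133, plus strand, site 46 bases before the start): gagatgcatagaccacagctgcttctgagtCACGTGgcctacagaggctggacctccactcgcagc

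Among the 14 proteases, 10 rose with MSNPs, 2 fell and 2 did not pass the test, with a median log2 fold change of 0.60. Cathepsin B (ENSMUSG00000021939, chr14:63358384-63383372), a lysosomal cysteine protease, gave 2427, 2578 and 2718 CPM in the control libraries and 5861, 5638 and 5532 CPM in the MSNP libraries. Every MSNP library was above the highest control by more than the range of the controls, and the log2 fold change was 1.14 ± 0.06 (SE, adjusted p = 1.26e-09, edgeR). Cathepsin A (Ctsa), a carboxypeptidase that also protects neuraminidase and beta-galactosidase, gave 884, 882 and 1023 CPM in the controls and 1562, 1554 and 1561 CPM with MSNPs, a log2 fold change of 0.75 ± 0.06 (adjusted p = 2.74e-07, edgeR). Tripeptidyl peptidase 1 (Tpp1), which removes tripeptides from protein ends, gave 202, 207 and 179 CPM in the controls and 335, 333 and 339 CPM with MSNPs, a log2 fold change of 0.78 ± 0.06 (adjusted p = 3.13e-07, edgeR). The groups did not overlap for either of them. The other 7 that rose were Ctsd (log2 fold change 1.0), cathepsin Z (Ctsz, 0.86), the collagen-degrading cathepsin K (Ctsk, 0.84), cathepsin C (Ctsc, 0.81), which activates granule serine proteases, legumain (Lgmn, 0.44), cathepsin L (Ctsl, 0.40) and Ctse (0.31). The call of Ctse was lost without MSNP replicate 2 or Control replicate 1 (0.29 to 0.31, adjusted p 0.054 to 0.083, edgeR), and that of Ctsl with the length offset (0.17, adjusted p = 0.51, edgeR). Without Control replicate 3 and without the offset, Ctsl was at 0.56 (adjusted p = 3.04e-08, edgeR).

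Cathepsin H (Ctsh, ENSMUSG00000032359, chr9:89936205-89958148), an aminopeptidase, went the other way. It gave 495, 538 and 740 CPM in the controls and 385, 345 and 346 CPM with MSNPs, and the groups did not overlap. Its log2 fold change was -0.72 ± 0.12 (adjusted p = 2.34e-04, edgeR), and -0.52 without Control replicate 3, its highest control (adjusted p = 2.01e-06). Cathepsin F (Ctsf) also fell, from 56.2, 51.7 and 75.0 CPM to 46.7, 43.0 and 45.3 CPM, a log2 fold change of -0.44 ± 0.11 (adjusted p = 0.007, edgeR) that was -0.25 without Control replicate 3 (adjusted p = 0.0013). Every MSNP library lay below every control for Ctsf as well. Cathepsin S (Ctss), which trims the invariant chain during antigen presentation, and cathepsin O (Ctso) did not pass the test, with log2 fold changes of 0.28 (95% interval 0.04 to 0.52) and -0.19 (-0.35 to -0.03). Ctss gave 452, 451 and 658 CPM in the controls and 641, 625 and 631 CPM with MSNPs, so that only Control replicate 3 lay above the MSNP libraries. Both passed without that library, Ctss at 0.49 ± 0.05 and Ctso at -0.20 ± 0.07 (adjusted p = 0.045, edgeR).

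Among the 14 glycosidases 10 rose with MSNPs, 0 fell and 4 did not pass, with a median log2 fold change of 0.76. The largest change of the 56 genes on the log2 scale was that of Hyal1 (ENSMUSG00000010051, chr9:107454126-107458909), which cleaves hyaluronan. It gave 12, 11.5 and 8.33 CPM in the controls and 81.6, 82.3 and 94.4 CPM with MSNPs, so that the lowest MSNP library was several times the highest control. The log2 fold change was 3.02 ± 0.14 (8.12-fold, adjusted p = 5.76e-10, edgeR). Of the Hyal1 exon bases 50.8% are shared with Naa80 on the same strand, a gene that also rose, from a mean of 19.7 to 73.5 CPM, so that its reads and those of Hyal1 may not have been fully told apart by the counting.

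Alpha-galactosidase A (Gla), which removes terminal galactose from globotriaosylceramide, gave 48.4, 52.3 and 61.5 CPM in the controls and 216, 205 and 197 CPM with MSNPs. Its MSNP and control libraries were far apart, with a log2 fold change of 1.93 ± 0.09 (3.81-fold, adjusted p = 3.27e-10, edgeR). The heparan sulfate enzyme Naglu, an N-acetylglucosaminidase, gave 65.3, 61.1 and 59.5 CPM in the controls and 143, 145 and 141 CPM with MSNPs, a log2 fold change of 1.21 ± 0.06 (adjusted p = 1.02e-09, edgeR). The groups again did not overlap. The others that rose were the glycogen-degrading Gaa (log2 fold change 1.19), the iduronidase Idua (0.97), the sialidase Neu1 (0.81), the galactosylceramidase Galc (0.77), the hexosaminidase subunit Hexa (0.75), the beta-glucuronidase Gusb (0.62) and the beta-mannosidase Manba (0.34). The 4 that did not pass were the beta-galactosidase Glb1 (0.14, 95% interval 0.01 to 0.27), the alpha-mannosidase Man2b1 (0.15, 0.02 to 0.28), the fucosidase Fuca1 (-0.14, -0.32 to 0.04) and the aspartylglucosaminidase Aga (0.04, -0.20 to 0.29). Aga gave 24.3, 22.3 and 34.3 CPM in the controls and 28.4, 27.0 and 28.0 CPM with MSNPs, and without Control replicate 3, its highest control, it passed at 0.26 ± 0.06 (adjusted p = 0.0012, edgeR). Fuca1 was at -0.002 without that library. For Glb1 and Man2b1 every MSNP library was above every control all the same.

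Of the 6 enzymes of sulfated sugar breakdown, 3 rose with MSNPs and 3 did not pass, with a median log2 fold change of 0.19. Arylsulfatase A (Arsa), which desulfates sulfatide, gave 21.9, 23.6 and 23.2 CPM in the controls and 33.7, 30.8 and 33.0 CPM with MSNPs, a log2 fold change of 0.51 ± 0.07 (adjusted p = 4.00e-05, edgeR). Galns, which acts on keratan and chondroitin sulfate, gave 57.0, 59.0 and 54.3 CPM against 67.8, 69.2 and 70.1 CPM, a log2 fold change of 0.28 ± 0.06 (adjusted p = 0.0025, edgeR). Arsb, which acts on dermatan sulfate, gave 296, 333 and 221 CPM against 395, 382 and 362 CPM, a log2 fold change of 0.42 ± 0.11 (adjusted p = 0.014, edgeR). None of the 3 overlapped between groups, although the Arsb controls were widely spread, and its call was lost without MSNP replicate 1 or 2 (0.41 to 0.43, adjusted p 0.053 to 0.06, edgeR). Without Control replicate 3, its lowest control, the log2 fold change of Arsb was 0.28 (adjusted p = 0.0049, edgeR). The heparan sulfate enzymes Sgsh (log2 fold change 0.09), Hgsnat (0.03) and Ids (-0.04), the last also acting on dermatan sulfate, did not pass, whereas Naglu, which takes part in the same degradation, did. Ids gave 52.0, 51.1 and 31.7 CPM in the controls and 41.7, 45.9 and 43.3 CPM with MSNPs, and without Control replicate 3, its lowest control, it passed at -0.23 ± 0.06 (adjusted p = 0.01, edgeR). Sgsh has a partner on the opposite strand, Card14, that shares 20.4% of its exon bases and went from 0.53 to 19.2 CPM, and whether the counting used strand is not given in the sources used here.

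**Figure D3:**
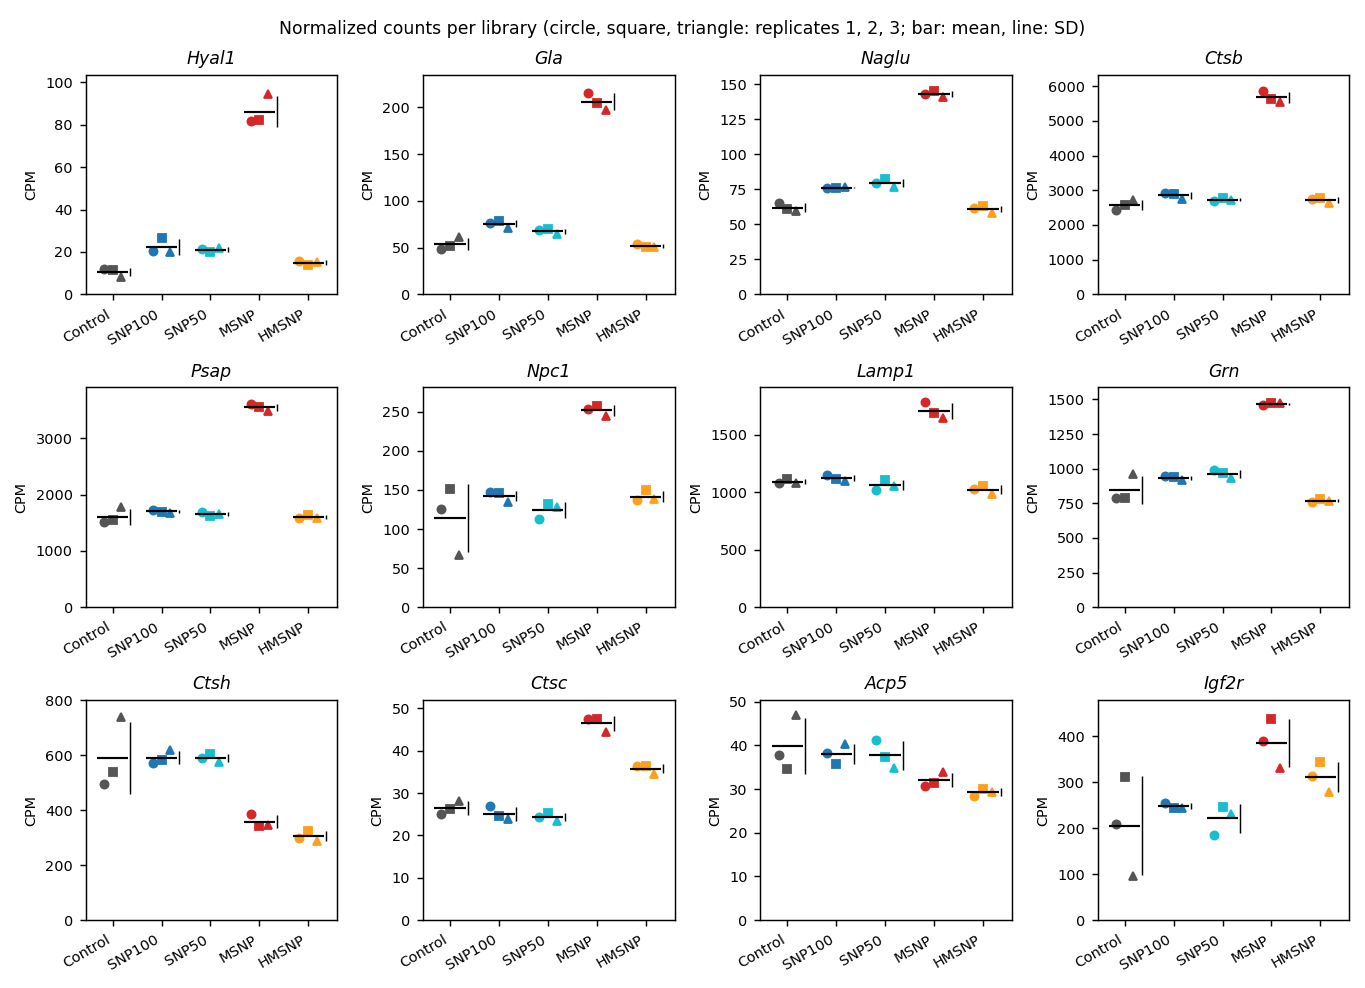
Normalized counts (CPM, axes from 0) of 12 lysosomal genes in each of the 15 libraries, with circles, squares and triangles for replicates 1, 2 and 3, bars for means and lines for SDs of 3 libraries. The MSNP libraries stand above the other groups for Hyal1, Gla, Naglu, Ctsb, Psap, Npc1, Lamp1, Grn and Ctsc, and below the controls for Ctsh and Acp5; HMSNP libraries lie at 35.7 CPM on average for Ctsc, between Control (26.4) and MSNP (46.5).

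Of the 5 lipid hydrolases, 4 rose with MSNPs and the palmitoyl thioesterase Ppt1 did not pass (log2 fold change 0.11, 95% interval -0.02 to 0.23). Acid ceramidase (Asah1) gave 120, 125 and 111 CPM in the controls and 159, 155 and 158 CPM with MSNPs, a log2 fold change of 0.41 ± 0.06 (adjusted p = 2.23e-04, edgeR). The lysosomal phospholipase A2 Pla2g15 gave 29.7, 29.6 and 38.6 CPM against 53.9, 50.1 and 45.9 CPM, a log2 fold change of 0.61 ± 0.10 (adjusted p = 2.72e-04, edgeR). Lysosomal acid lipase (Lipa), which frees cholesterol from its esters, gave 1012, 1171 and 846 CPM against 1489, 1397 and 1333 CPM, a log2 fold change of 0.48 ± 0.10 (adjusted p = 0.0026, edgeR). In each of these the lowest MSNP library lay above the highest control. The sphingomyelinase Smpd1 rose less, by a log2 fold change of 0.36 ± 0.09 (adjusted p = 0.0071, edgeR).

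The acid deoxyribonuclease Dnase2a, which degrades DNA of engulfed cells, gave 98.1, 94.2 and 136 CPM in the controls and 185, 185 and 192 CPM with MSNPs. It rose by a log2 fold change of 0.78 ± 0.11 (adjusted p = 6.11e-05, edgeR), with no overlap between the groups. The acid phosphatase Acp2 rose less, from 76.3, 79.8 and 73.3 CPM to 95.5, 90.8 and 92.4 CPM, a log2 fold change of 0.28 ± 0.06 (adjusted p = 0.0024, edgeR) that no longer passed (0.15) when the length trend of each library was removed. Without Control replicate 3, and with that trend kept, Acp2 was at 0.26 (adjusted p = 4.20e-04, edgeR). The tartrate-resistant phosphatase Acp5, known for its high level in osteoclasts, fell instead. It gave 37.8, 34.6 and 47.0 CPM against 30.7, 31.5 and 33.9 CPM, a log2 fold change of -0.31 ± 0.10 (adjusted p = 0.039, edgeR). Without Control replicate 3, its highest control, the value was -0.17 and did not pass (adjusted p = 0.094, edgeR), and the call was lost without each of 5 other libraries as well (MSNP replicates 1 and 2, SNP50 replicate 2, HMSNP replicates 2 and 3).

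Prosaposin (Psap, ENSMUSG00000004207, chr10:60113431-60138380) gave 1511, 1546 and 1773 CPM in the controls and 3608, 3554 and 3490 CPM with MSNPs. Every MSNP library was far above every control, and the log2 fold change was 1.14 ± 0.06 (2.21-fold, adjusted p = 2.78e-09, edgeR). Progranulin (Grn), a secreted and lysosomal protein that is cut into granulins, gave 791, 787 and 965 CPM in the controls and 1463, 1471 and 1474 CPM with MSNPs, a log2 fold change of 0.79 ± 0.07 (adjusted p = 7.10e-07, edgeR). The GM2 activator Gm2a (log2 fold change -0.16, 95% interval -0.29 to -0.03) and the cholesterol carrier Npc2 (0.06, -0.20 to 0.32) did not pass. Npc2 gave 283, 285 and 434 CPM in the controls and 363, 352 and 332 CPM with MSNPs, and without Control replicate 3, its highest control, it passed at 0.30 ± 0.05 on the log2 scale. For Gm2a every MSNP library lay below every control, with means of 61.5 and 68.8 CPM.

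Of the 6 membrane proteins, 5 rose with MSNPs and the glucocerebrosidase receptor Scarb2 did not pass (log2 fold change -0.01, 95% interval -0.16 to 0.15). Lamp1, an abundant glycoprotein of the lysosomal membrane, gave 1077, 1118 and 1084 CPM in the controls and 1780, 1690 and 1649 CPM with MSNPs, a log2 fold change of 0.64 ± 0.06 (adjusted p = 4.89e-07, edgeR). Cd68 gave 953, 923 and 996 CPM against 1570, 1523 and 1514 CPM, a log2 fold change of 0.68 ± 0.06 (adjusted p = 1.01e-06, edgeR). The controls of both genes were close together and the groups far apart. Npc1, which exports cholesterol from the lysosome, gave 125, 152 and 66.4 CPM in the controls and 254, 257 and 244 CPM with MSNPs, where the lowest control was the library that stood apart. Its log2 fold change was 1.14 ± 0.20 (adjusted p = 4.92e-04, edgeR), and 0.87 without that library (adjusted p = 8.92e-08). Lamp2 rose by a log2 fold change of 0.41 ± 0.09. The tetraspanin Cd63 passed the test (0.49 ± 0.15, adjusted p = 0.031, edgeR) with groups that overlapped, since Control replicate 3 gave 351 CPM and the other controls 204 and 205 CPM, against 346 to 366 CPM with MSNPs. That call was lost without MSNP replicate 1 or 2 or Control replicate 1 or 2 (0.36 to 0.51, adjusted p 0.051 to 0.077). Without Control replicate 3 its value was 0.80 (adjusted p = 2.76e-10, edgeR).

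Of the sorting proteins, the phosphotransferase Gnptab, which makes the mannose 6-phosphate tag, and the large mannose 6-phosphate receptor Igf2r rose with MSNPs, and the small receptor M6pr and Sort1 did not pass. Gnptab gave 269, 337 and 160 CPM in the controls and 449, 443 and 413 CPM with MSNPs, a log2 fold change of 0.77 ± 0.18 (adjusted p = 0.0048, edgeR). Igf2r gave 209, 311 and 96.5 CPM in the controls and 389, 436 and 331 CPM with MSNPs, a log2 fold change of 0.91 ± 0.28 (adjusted p = 0.027, edgeR), a call that was lost without MSNP replicate 1, MSNP replicate 2 or Control replicate 1 (log2 fold change 0.81 to 0.93, adjusted p 0.062 to 0.1). The spread of both came mostly from Control replicate 3, without which the values were 0.53 (adjusted p = 4.36e-05, edgeR) and 0.58 (adjusted p = 0.0053, edgeR). Sort1 was at -0.01, and at -0.25 without that library, and did not pass in either fit. M6pr, at 647, 651 and 729 CPM in the controls and 680, 648 and 638 CPM with MSNPs, had a log2 fold change of -0.05 (95% interval -0.17 to 0.08).

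The nonporous particles moved few of the genes. With SNP100, 3 of 56 rose (5.36%, against 0.509% of all tested genes called higher) and 0 fell (against 0.403% called lower), with a median log2 fold change of 0.05 against -0.03 over all tested genes. At an unadjusted p under 0.05 there were 15 of the 56 genes with SNP100, and 2085 of the 19839 tested genes. Every SNP100 library lay above every control in 10 genes and below in 4, where the shares over all tested genes were 5.34% and 7.19%. With SNP50, 2 of 56 rose (3.57%, against 0.454%) and 0 fell (against 0.958%), with a median of -0.01 against -0.002, and 17 of the 56 were under an unadjusted p of 0.05, as were 2384 of the 19839 tested genes. Every SNP50 library lay above every control in 8 genes and below in 7, where the shares were 6.26% and 7.87%. All of the genes called in this fit were glycosidases, which did not hold without Control replicate 3.

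Hyal1 gave 20.5, 26.5 and 20.0 CPM with SNP100 and 21.4, 19.8 and 22.1 CPM with SNP50, where the highest control was 12 CPM. Its log2 fold changes were 1.07 ± 0.14 (adjusted p = 0.0013, edgeR) and 0.99 ± 0.14 (adjusted p = 0.0026, edgeR). Naglu gave 76.2, 76.0 and 76.4 CPM with SNP100 and 79.5, 82.4 and 77.0 CPM with SNP50, all above the highest control of 65.3 CPM. The log2 fold changes were 0.30 ± 0.06 (adjusted p = 0.026, edgeR) and 0.36 ± 0.06 (adjusted p = 0.0071, edgeR). Gla gave 76.3, 78.9 and 71.5 CPM with SNP100 and 68.8, 69.7 and 64.6 CPM with SNP50, against a highest control of 61.5 CPM. It passed with SNP100 (log2 fold change 0.48 ± 0.08, adjusted p = 0.0098, edgeR) and not with SNP50 (0.33, 95% interval 0.15 to 0.50, adjusted p = 0.081). None of these 5 calls passed when only the 6 libraries of a comparison were fitted, with adjusted p between 0.34 and 0.86. The call of Gla with SNP100 was also lost without SNP100 replicate 2 (0.45, adjusted p = 0.062, edgeR), and that of Naglu in 8 of the 15 fits that left out 1 library (0.29 to 0.31, adjusted p 0.051 to 0.13, edgeR). Without Control replicate 3 the counts were 13 higher and 0 lower with SNP100, and 15 higher and 10 lower with SNP50, beside 5.16% and 18.9% of all tested genes. Those higher with both particles then included genes of other classes, such as Ctsa, Ctsz, Dnase2a, Grn and Cd63. Those lower with SNP50 included Asah1 and Lipa.

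SNP50 and SNP100 were also compared with each other, at doses that differed. None of the 56 genes was called in edgeR, as was 0.0% of all tested genes, and DESeq2 called 0 of the 56 as well. Of the 56 genes 2 were under an unadjusted p of 0.05, as were 867 of the 19839 tested genes, namely Asah1 (log2 fold change -0.14, 95% interval -0.28 to -0.002) and Lipa (-0.23, -0.44 to -0.01), both lower with SNP50. Every SNP50 library lay below every SNP100 library in 16 genes and above in 3, where the shares over all tested genes were 12.3% and 11.6%, and the median log2 difference was -0.04 for the 56 genes and 0.0 for all. For Gla the difference was -0.16 (-0.33 to 0.02) and for Hyal1 -0.08 (-0.37 to 0.20). MSNP against SNP100, particles of similar diameter at doses of 200 and 50 µg/mL, gave 37 genes higher (66.1%, against 10.4%) and 1 lower (1.79%, against 7.53%). Every MSNP library lay above every SNP100 library in 45 genes and below in 7, where the shares were 22.9% and 22.7%. The one that was called lower was Ctsh, at -0.72 ± 0.12 (adjusted p = 3.00e-04, edgeR), with 572, 585 and 619 CPM in the SNP100 libraries. Hyal1, at 1.95 ± 0.13, and Gla, at 1.45 ± 0.08, were again far apart between the groups. Since the doses differed 4-fold, particle structure and dose cannot be told apart in this comparison.

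With HMSNPs, given at the same dose as MSNPs, 2 of the 56 genes rose against the controls (3.57%, against 2.46% of all tested genes called higher) and 3 fell (5.36%, against 2.7% called lower). The median log2 fold change was -0.04 for the 56 genes and for all tested genes. Cathepsin C gave 25.0, 26.2 and 28.2 CPM in the controls and 36.3, 36.4 and 34.5 CPM with HMSNPs, a log2 fold change of 0.43 ± 0.07 (adjusted p = 0.002, edgeR). Its HMSNP libraries lay between those of the controls and those of MSNP, at 47.4, 47.6 and 44.5 CPM, with no overlap on either side. Acp2 gave 90.3, 93.9 and 92.8 CPM with HMSNPs, against 73.3 to 79.8 CPM without particles, a log2 fold change of 0.27 ± 0.06 (adjusted p = 0.014, edgeR). It no longer passed after removal of the length trend (0.14, adjusted p = 0.11, edgeR) or without HMSNP replicate 2 or 3 (0.26 to 0.27, adjusted p 0.055 to 0.067). Without Control replicate 3, and with that trend kept, Acp2 was at 0.24 (adjusted p = 0.0034, edgeR).

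Ctsh fell further with HMSNPs than any other of the genes. It gave 301, 326 and 290 CPM, all below the lowest control of 495 CPM, and a log2 fold change of -0.95 ± 0.12 (adjusted p = 1.60e-04, edgeR), or -0.76 without Control replicate 3 (adjusted p = 1.63e-07). Acp5 gave 28.4, 30.1 and 29.4 CPM against 34.6 to 47.0 CPM in the controls, with a log2 fold change of -0.44 ± 0.10 (adjusted p = 0.022, edgeR), or -0.31 without Control replicate 3 (adjusted p = 0.011). The call was lost when any 1 HMSNP library was left out (-0.46 to -0.40, adjusted p 0.065 to 0.093, edgeR). Glb1 gave 50.1, 56.5 and 53.1 CPM against 60.9 to 63.8 CPM, a log2 fold change of -0.22 ± 0.06 that lay just inside the threshold (adjusted p = 0.048, edgeR) and was lost in 14 of the 15 fits that left out 1 library (-0.27 to -0.16). All 3 were lower in 3 of 3 HMSNP libraries than in any control. Of the 10 genes with the largest MSNP log2 fold changes, none passed with HMSNPs in edgeR, although Hyal1 and Igf2r had an unadjusted p under 0.05 and Hyal1 passed with DESeq2 (0.50, adjusted p = 0.011). Their log2 fold changes were -0.06 for Gla (95% interval -0.24 to 0.11), -0.02 for Naglu (-0.15 to 0.10), 0.08 for Gaa (-0.07 to 0.24), 0.08 for Ctsb (-0.05 to 0.20), -0.003 for Psap (-0.14 to 0.13), -0.07 for Ctsd (-0.29 to 0.14) and 0.15 for Idua (-0.12 to 0.43). The values of Npc1 (0.31, -0.11 to 0.73) and Igf2r (0.60, 0.02 to 1.19) were higher and rested on Control replicate 3, without which they were 0.03 and 0.26. Without that library Ctsd was at 0.10 and Idua at -0.02. Hgsnat, at 0.21 (0.08 to 0.33, adjusted p = 0.054, edgeR), passed without it (0.21, adjusted p = 0.015, edgeR). Hyal1 gave 15.8, 13.7 and 15.3 CPM, above each control, with a log2 fold change of 0.49 (0.20 to 0.79) that did not pass (adjusted p = 0.051, edgeR), or 0.34 without Control replicate 3 (adjusted p = 0.07, edgeR).

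The direct comparison at the matched dose set the hollow mesoporous HMSNP against MSNP. Here 35 of the 56 genes were lower with HMSNPs (62.5%, against 11.0% of all tested genes) and 2 higher (3.57%, against 9.22%), with a median log2 fold change of -0.44 against 0.004 over all tested genes. In 45 genes every HMSNP library lay below every MSNP library, where 23.7% of all tested genes did so, and in 3 every one lay above, where 21.6% did. This comparison shares its MSNP libraries with that of MSNP against the controls, so the 2 are not independent. The dose was matched by mass only, and the paper describes HMSNPs as different in density and surface composition as well. Hollow structure cannot be told apart from these here. By class, those lower were 11 of 14 proteases, 11 of 14 glycosidases, 2 of 6 enzymes of sulfated sugar breakdown, 4 of 5 lipid hydrolases, 1 of 3 phosphatases and nucleases, 2 of 4 activators, 4 of 6 membrane proteins and 0 of 4 sorting proteins.

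**Figure D4:**
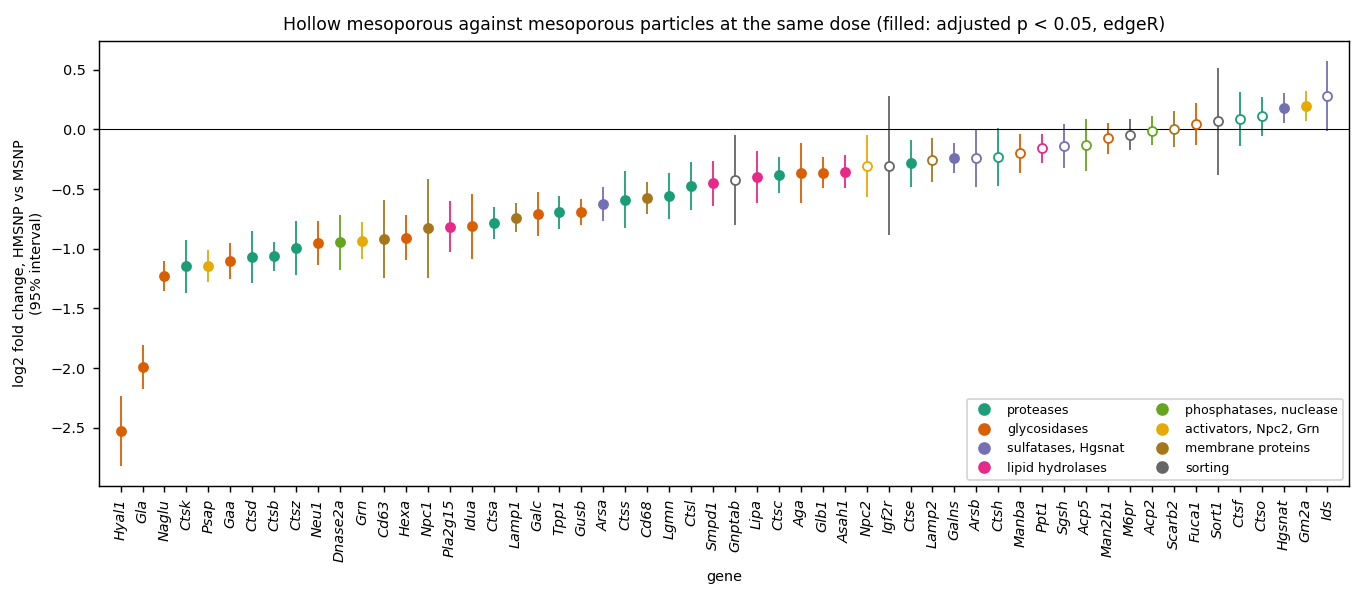
Log2 fold change of HMSNP against MSNP, both at 200 µg/mL, for each of the 56 lysosomal genes in rising order, coloured by class; lines are 95% intervals and filled points passed an adjusted p of 0.05. The lowest points are Hyal1 (-2.53), Gla (-1.99) and Naglu (-1.23), and the only filled points above 0 are Hgsnat (0.18) and Gm2a (0.19).

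Hyal1 differed most between the hollow and the mesoporous particles, by -2.53 ± 0.14 on the log2 scale (adjusted p = 3.02e-09, edgeR). Gla followed, with HMSNP values of 53.9, 50.6 and 50.8 CPM and a difference of -1.99 ± 0.09 (adjusted p = 2.87e-10, edgeR), and then Naglu, with 61.8, 62.9 and 58.4 CPM and a difference of -1.23 ± 0.06 (adjusted p = 9.81e-10, edgeR). Among the proteases Ctsk went from 19.4, 17.2 and 18.9 CPM with MSNPs to 8.20, 8.25 and 8.57 CPM with HMSNPs, a difference of -1.15 ± 0.10 (adjusted p = 8.51e-07, edgeR). Ctsb, at 2747, 2779 and 2622 CPM with HMSNPs, differed by -1.06 ± 0.06 (adjusted p = 3.02e-09, edgeR), and Ctsa, at 895, 912 and 910 CPM, by -0.78 ± 0.06 (adjusted p = 1.71e-07, edgeR). Each of these had no overlap between the particles.

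Psap gave 1590, 1646 and 1583 CPM with HMSNPs, a difference of -1.14 ± 0.06 (adjusted p = 3.28e-09, edgeR), and Grn gave 758, 785 and 768 CPM, a difference of -0.93 ± 0.07 (adjusted p = 1.43e-07, edgeR). Lamp1 gave 1030, 1054 and 982 CPM and differed by -0.74 ± 0.06 (adjusted p = 1.22e-07, edgeR). Cd63 gave 189, 193 and 181 CPM with HMSNPs and did not overlap with MSNP, a difference of -0.92 ± 0.15 (adjusted p = 3.67e-04, edgeR). Dnase2a differed by -0.95 ± 0.11, Pla2g15 by -0.81 ± 0.10, Smpd1 by -0.45 ± 0.09 and Arsa by -0.63 ± 0.07. Ctss and Aga, which had not passed between MSNP and the controls, were lower with HMSNPs than with MSNPs, by -0.59 ± 0.11 (adjusted p = 0.0013, edgeR) and -0.36 ± 0.12 (adjusted p = 0.039, edgeR), as was Glb1, by -0.36 ± 0.06 (adjusted p = 4.04e-04, edgeR). The call of Aga was lost when any 1 MSNP or HMSNP library was left out (-0.38 to -0.35, adjusted p 0.052 to 0.11, edgeR). Ctse, counted among the proteases lower with HMSNPs, lost its call in 12 of the 15 fits that left out 1 library (-0.31 to -0.23, adjusted p 0.053 to 0.17, edgeR). It did not pass with DESeq2 either (adjusted p = 0.07). The calls of Galns and Lipa were lost in 2 of those 15 fits each.

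Those higher with HMSNPs were Hgsnat, an acetyltransferase of the lysosomal membrane, and Gm2a, and both differences were small. Hgsnat gave 70.4, 76.1 and 68.7 CPM with HMSNPs and 63.5, 62.5 and 63.8 CPM with MSNPs, a difference of 0.18 ± 0.06 (adjusted p = 0.041, edgeR). Gm2a gave 70.1, 72.2 and 68.8 CPM against 60.7, 61.2 and 62.7 CPM, a difference of 0.19 ± 0.06 (adjusted p = 0.03, edgeR). Both calls were lost when any 1 of the MSNP libraries was left out, and that of Gm2a also when any 1 HMSNP library was. Of the 15 fits that left out 1 library, the call of Hgsnat was lost in 9 and that of Gm2a in 6. The lowest and highest values over those fits were 0.14 and 0.20 for Hgsnat and 0.17 and 0.21 for Gm2a. Of the genes that had fallen with MSNPs, Ctsh (-0.23, 95% interval -0.48 to 0.01), Ctsf (0.09, -0.14 to 0.31) and Acp5 (-0.13, -0.35 to 0.09) were not called between the particles, nor was Acp2 (-0.01, -0.13 to 0.12). The 4 sorting proteins were not called either, with Igf2r at -0.30 (-0.89 to 0.28) and Gnptab at -0.43 (-0.80 to -0.05).

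A further 35 lysosomal genes outside the 56 were listed for reference, of which 34 were tested. With MSNPs 21 rose and 1 fell, beside 11.8% and 11.0% of all tested genes, with a median log2 fold change of 0.40 against -0.05. With SNP100 2 rose and 0 fell, beside 0.509% and 0.403% of all tested genes, and with SNP50 2 rose and 0 fell, beside 0.454% and 0.958%. Between HMSNP and MSNP 0 were higher and 21 lower, beside 9.22% and 11.0%. Those with the smallest adjusted p in the MSNP comparison were the glycoprotein Gpnmb (log2 fold change 2.88), the carboxypeptidase Scpep1 (1.11), the sialomucin Cd164 (1.18) and the calcium channel Mcoln1 (1.23). The one that fell with MSNPs was lysozyme (Lyz2, -0.39), which is also among the macrophage markers above. Its highest control was Control replicate 3, at 15070 CPM against 10710 and 10760 CPM in the others and 8928 to 9810 CPM with MSNPs.

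The MiT/TFE factors themselves did not rise as a group. With MSNPs Mitf gave 39.9, 36.6 and 38.2 CPM against 115, 121 and 74.3 CPM in the controls, a log2 fold change of -1.43 ± 0.13 (adjusted p = 9.57e-07, edgeR). Tfe3 also fell, by -0.46 ± 0.06 (adjusted p = 2.31e-05, edgeR), Tfeb was at -0.32 (adjusted p = 0.058), and Tfec, at no more than 4.08 CPM in any library, rose by 0.63 ± 0.18 (adjusted p = 0.021, edgeR). With HMSNPs the log2 fold changes against the controls were 0.05 for Mitf, -0.10 for Tfe3, 0.25 for Tfeb and 0.36 for Tfec, and did not pass the test. With SNP100 all 4 were lower than in the controls, from -0.33 to -0.13, and 0 were called. With SNP50 3 of the 4 were lower, with a median of -0.27, and 1 was called lower, beside 0.958% of all tested genes. These are transcript levels, and the activity of the factors, which depends on their place in the cell, was not measured here.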

How the data were processed

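The authors sequenced poly(A) RNA from 15 libraries and deposited raw read counts per gene. The submitters' processing notes name cutadapt 1.16, STAR 2.7.9a, featureCounts 1.6.3 and the GRCm39 build; the annotation and the strand setting of the counting are not given in the sources used here. Doses and particle types were taken from the study's methods, and the groups from the sample labels.

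Genes with a summed count of at least 10 were kept (19839 genes) and all 15 libraries were fitted in 1 model by group with edgeR 4.0.16 in R 4.3.3 (TMM normalization, quasi-likelihood test, Benjamini-Hochberg adjustment over all tested genes, threshold 0.05). The pipeline was tested on simulated counts that held no outlying control and no length trend, so that test does not cover these features of the data. DESeq2 1.42.0, other filters and normalization, 6-library fits, a replicate block, a transcript length offset and leaving out each library in turn were alternatives. CPM used the TMM library sizes. Transcript lengths, coordinates and promoters came from GENCODE vM39. Intervals cover the spread between libraries. The total counts of 29369934 to 42617812 per library set the counting precision.

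Values per library and fold changes were given for genes that passed the test, led by up to 3 per class with the smallest adjusted p; values of genes that did not pass were added outside this rule, after they were seen. The genes, lists and tests were chosen with earlier results of these data known. The result of the further lysosomal genes in HMSNP against Control is not reported here.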

Additional observations from a re-analysis of the deposited data

How the results depend on the processing

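The number of the 56 genes called with MSNPs against the controls (41) stayed between 36 and 45 when any 1 library was left out. The share of all tested genes called in those fits ran from 17.4% to 33.2%. The number was 26 when only the 6 libraries of the comparison were fitted (13.0% of all tested genes). In that fit, 47 were called between HMSNP and MSNP (37 with all libraries) and 47 between MSNP and SNP100 (38), each beside 40.9% of all tested genes. No called gene changed direction under any alternative, and 26 of the 41 were called under all of them, as were 31 of 37 between HMSNP and MSNP and 28 of 38 between MSNP and SNP100. The small counts depended on the setting, and are given with the percent of all tested genes called under it. With SNP100 (3 genes) the count was 7 with DESeq2 (2.5%), 7 with the length offset (2.71%) and 0 with 6 libraries (0.0%), and 1 to 13 with a library left out, where 1 was without SNP100 replicate 2 (0.29%) and 13 without Control replicate 3 (5.16%). With SNP50 (2 genes) it was 6 with the filterByExpr filter (2.86%), 8 with DESeq2 (3.43%), 9 with the length offset (4.7%) and 0 with 6 libraries (0.00574%), and 2 to 25 with a library left out, where 25 was without Control replicate 3 (18.9%). With HMSNP (5 genes) it was 8 with filterByExpr (8.97%), 8 with DESeq2 (9.8%) and 0 with 6 libraries (0.439%), and 2 to 15 with a library left out, where 2 was without HMSNP replicate 2 (2.51%) or 3 (2.93%), 3 without HMSNP replicate 1 (2.53%) and 15 without Control replicate 2 (25.2%). With the length offset and without Control replicate 3, an alternative chosen after seeing the data, the counts were 14 (6.25%) for SNP100, 19 (15.6%) for SNP50 and 8 (11.3%) for HMSNP. The cause of these shifts was not tested. The 6-library fit estimates the spread from fewer libraries.

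Whether replicate numbers pair the samples could not be settled. The correlations of same-numbered libraries, taken on deviations from the means of 3 libraries, ran from -0.517 to 0.573. With the replicate number as a block, 41 genes were called with MSNPs (beside 22.1% of all tested genes) and 4 with HMSNPs (4.46%). With SNP100 3 were called (0.716%) and with SNP50 2 (0.907%). Between HMSNP and MSNP 35 were called (19.2%), where Hgsnat, Gm2a and Ctse were lost, and between MSNP and SNP100 37 (16.9%).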
